A study of Ovis aries with 20 samples.

Results

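The change of gene expression over the last weeks of gestation was examined in pancreas that lacks functional CFTR, by comparing CFTR-/- sheep at term with CFTR-/- fetuses at 120 days. All libraries labelled with this genotype and these ages were taken, which are 2 at term and 2 at 120 days, or 4 of the 20 bulk RNA-seq libraries and 4 of the 10 CFTR-/- libraries. Term is day 147 of gestation by the labels. All CFTR-/- animals of this experiment were clones, made by placing nuclei of cultured cells into enucleated eggs, of 1 male fetal fibroblast line of the American Romney breed targeted in exon 2 of CFTR, so that the animals of both ages share 1 donor genotype. WT animals were bred and the WT lambs at term were naturally born, so that genotype, cloning and birth cannot be told apart in comparisons with WT. The study also reports slightly lower RNA integrity in CFTR-/- pancreas at term than in WT, though within its criteria. Whether RNA integrity has a part in the differences was not tested. The study took tissue from the centre of the organ and asked how CF pancreas disease, with its dilated ducts and acini, mucus and fibrosis, evolves before birth. Of 24478 genes in the table, 18737 had enough counts to be tested. P-values rest on 2 animals at each age. An exact permutation test of 2 against 2 cannot go below a two-sided p of 0.333, so the CPM (each gene's counts relative to the library total, normalized for library composition) of each animal are given, animal 1 before animal 2.

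The exocrine pancreas is built of acinar cells, which store digestive enzymes as inactive zymogens, and of ducts, where CFTR, a chloride and bicarbonate channel, hydrates the secretion. Towards birth acinar cells normally fill with zymogens, dividing progenitors become fewer, the mesenchyme that surrounds the young lobules gives way to epithelium, and a surge of fetal cortisol matures many organs. Making large amounts of secreted protein also loads the endoplasmic reticulum, whose unfolded protein response raises chaperones such as HSPA5.

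Term animal 2 stood apart in depth, and both term libraries and 1 library at 100 days in missing genes. Total counts were 63486596 and 63703746 at 120 days, 59755480 in term animal 1 and 23171353 in term animal 2. A single locus, LOC101117443, took 22.9% and 24.2% of the counts at 120 days and 33.2% and 30.8% at term. By total and scaling factor together, 1 count was worth 0.0173 and 0.0198 CPM at 120 days, 0.0323 CPM in term animal 1 and 0.0805 CPM in term animal 2. Among genes at 2 to 5 CPM on average in the other libraries, 2.89% in term animal 1 and 11.01% in term animal 2 had 0 counts, against 0.0932% and 0.232% at 120 days. The library of CFTR-/- animal 2 at 100 days, which is no part of the contrast but enters the filter, the scaling and the estimate of the spread, had 7.26% of such genes at 0 and 35973948 counts, and the labels give it the same animal name as WT animal 1 at 65 days. In log2 CPM the 2 animals correlated at 0.897 at term and 0.962 at 120 days (Pearson's r across genes, and genes are not independent of each other), and their median absolute difference was 0.52 at term and 0.35 at 120 days.

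**Figure D1:**
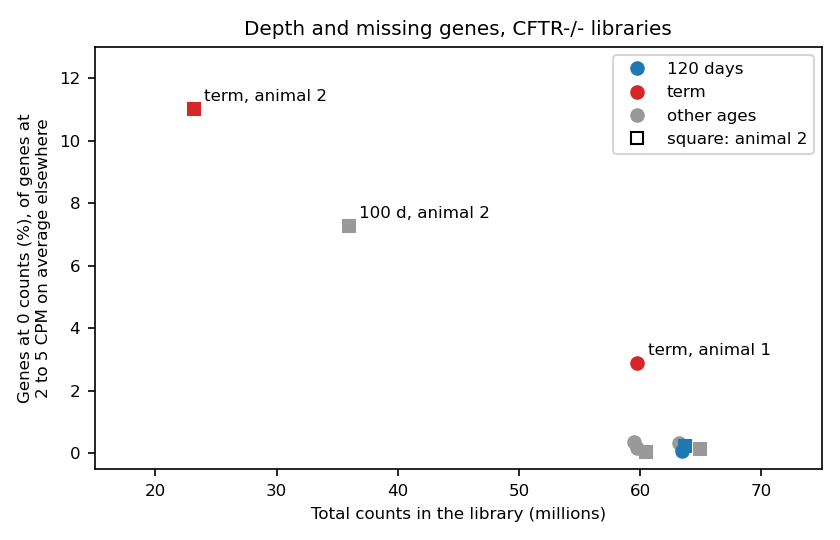
Share of genes without a count (percent, y axis) among genes that average 2 to 5 CPM in the other libraries, against total counts (x axis), with 1 point per CFTR-/- library and squares for animal 2. Term animal 2 sits at 11.01% with 23171353 counts, 100-day animal 2 at 7.26% and term animal 1 at 2.89%, and the other 7 libraries lie between 0.0467% and 0.372%.

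Not one gene passed the test. With limits of 0.01 for the p adjusted by Benjamini and Hochberg and of 0.58 for the size of the log2 fold change, edgeR's quasi-likelihood test called 0 of 18737 genes (0.0%), with a smallest adjusted p of 0.189. An unadjusted p under 0.05 was reached by 1828 genes (9.76%). The same limits gave 139 genes (0.742%) with DESeq2's Wald test (40 higher and 99 lower at term, 31 of them at 0 counts in both term libraries) and 92 (0.491%) with edgeR's likelihood ratio test (14 higher and 78 lower, 44 of them at 0 in both term libraries), with 74 genes in both sets. On simulated counts with the spread of these libraries, the test called 0% of genes changed 2-fold, 10% of those changed 4-fold, 38% at 8-fold and 56% at 16-fold. Differences are therefore described below by a weaker rule, an unadjusted p of at most 0.01 with the same fold limit, which is no call.

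The weaker rule held for 488 genes (2.6%), of which 117 were higher at term (0.624%) and 371 lower (1.98%). Fitted on only the 4 libraries compared, it held for 382 genes, of which 214 (56.0%) were higher, so that the balance of directions turned. In the simulation it took in 53.5% of the 200 changed genes and 146 unchanged ones. Of the 371, 126 had 0 counts in both term libraries. Genes with 0 in both term libraries made up 1835 of the genes tested, and those with 0 in both 120-day libraries 271. Among the 14539 genes counted in all 4 libraries the rule held for 334, with 117 higher and 217 lower. Fitted log2 fold changes were below 0 for 55.9% of genes and above 0 for 43.0%, with a median of -0.10, and the groups did not overlap in CPM for 27.0% of genes in the lower and 16.5% in the higher direction. With genes split into 5 equal bins by length, the median was 0.056 for the shortest and -0.068, -0.15, -0.17 and -0.14 for the others in order, so the shortest genes alone had a median above 0. With this trend removed in each library the median of all genes was 0.31 and 75.4% of 786 genes by the weaker rule were higher, against 24.0% of 488, and with the median of each library then set to 0, a recentring chosen after the first result was seen, 25.5% of 502 were higher. Leaving out 1 library moved the count to 184 without 120-day animal 1, 280 without 120-day animal 2, 1288 without term animal 1, 348 without term animal 2 and 878 without 100-day animal 2.

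**Figure D2:**
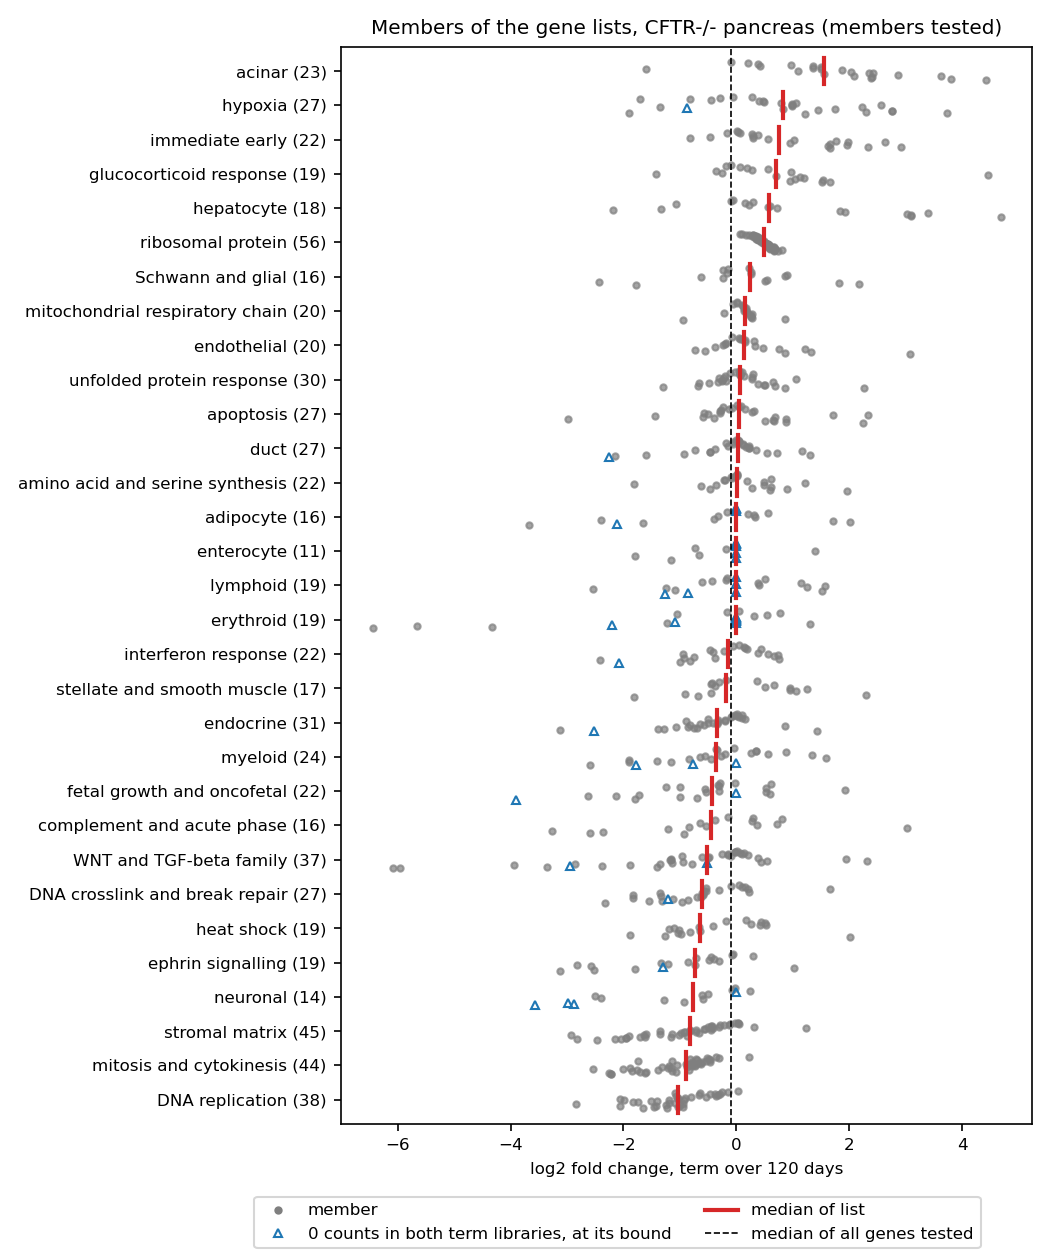
Fitted log2 fold change of term over 120 days (x axis) for each tested member of the gene lists (y axis, number tested in brackets), with the list's median as a red bar and the median of all genes as a dashed line at -0.10. Members at 0 counts in both term libraries are triangles placed at their lower bound, or at 0 where no fold can be given. DNA replication, mitosis and matrix genes lie mostly left of the line, and acinar genes right of it.

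CFTR itself lies on chromosome 4 between 50644000 and 50864925 in Oar_v4.0 and was measured at 12.2 and 27.6 CPM in the 120-day animals and 16.9 and 11.6 CPM in the term animals. The values of the ages overlapped, and the difference was within the spread (log2 fold change -0.47, SE 0.38, adjusted p 0.685, edgeR with Benjamini-Hochberg adjustment). A count over the whole gene does not test the targeted exon, since the altered allele can still be transcribed, so these values check neither the genotype nor the protein. Earlier CFTR-/- fetuses had 44.5 and 45.8 CPM at 65 days.

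Genes of the digestive enzymes were higher at term. Of 23 acinar genes tested, 21 were higher and 2 lower, with a median log2 fold change of 1.55, and 19 were higher without overlap of the groups, where 16.5% of all genes were. The weaker rule was met by 4, all higher, against 0.624% of all genes in that direction. CTRB1, which encodes chymotrypsinogen B, was measured at 11484 and 5281 CPM at term compared with 309 and 469 CPM at 120 days. Both term animals were far above both fetuses of 120 days (log2 fold change 4.43, SE 1.03, adjusted p 0.292, edgeR). CTRC, the chymotrypsin that degrades trypsin in the acinus, was at 853 and 1513 CPM at 120 days against 21243 and 11982 CPM at term (log2 fold change 3.81, SE 1.08). Its term values likewise did not overlap those of 120 days. SYCN, a protein of the zymogen granule membrane, was at 560.4 and 977 CPM in the 120-day animals and 4794 and 3244 CPM in the term animals (log2 fold change 2.39, SE 0.72). REG1A, a small lectin-like protein secreted by acinar cells, was at 6784 and 2239 CPM at term compared with 808 and 885 CPM at 120 days (log2 fold change 2.41, SE 0.75). In both genes animal 1 was the higher of the term animals.

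Other acinar genes did not meet the weaker rule. PRSS2, a trypsinogen, was at 6952 and 8517 CPM at 120 days against 35669 and 21291 CPM at term (log2 fold change 1.88, SE 0.87). CELA3B, an elastase, was at 4239 and 6217 CPM in the 120-day animals and 29804 and 26269 CPM in the term animals (log2 fold change 2.42, SE 1.01). The groups did not overlap in either. CEL, the bile salt-dependent lipase, had 37318 and 24483 CPM at term compared with 16787 and 14822 CPM at 120 days (log2 fold change 0.97, SE 0.93), and PNLIP, the classical triglyceride lipase, 6.64 and 3.72 CPM at 120 days against 67.4 and 60.5 CPM at term. The transcription factor RBPJL, which drives acinar genes, was at 72.1 and 64.04 CPM in the 120-day animals and 74.8 and 52.2 CPM in the term animals and its ages overlapped. Summed over the list, acinar genes held 106800.0 and 109540.0 CPM in the fetuses against 395540.0 and 227220.0 CPM at term, and the most abundant was CPA1, a carboxypeptidase, at 101400.0 and 51777 CPM at term compared with 30258 and 29075 CPM at 120 days. In these tissue pieces more acinar cells and more enzyme mRNA per cell cannot be told apart, and the same holds for every cell type below. Several of these genes have close copies in the sheep genome, and reads may be divided among them. Without 100-day animal 2, where CTRC was at 24.5 CPM against 469 CPM in animal 1 of that age, the weaker rule held for 14 of 23 acinar genes, all higher, against 1.31% of all genes tested in the higher direction.

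Genes of DNA replication were lower at term. Of 38 tested, 37 were lower and 1 higher, with a median log2 fold change of -1.03, and 33 were lower without overlap, where 27.0% of all genes were. The weaker rule was met by 7, all lower, against 1.98% of all genes in that direction. MCM6, a subunit of the helicase that opens replication origins, was at 35.2 and 38.1 CPM at 120 days against 16.5 and 6.68 CPM at term (log2 fold change -1.65, SE 0.37, adjusted p 0.286, edgeR). MCM10, which helps to activate that helicase, was at 11.6 and 14.7 CPM in the 120-day animals and 4.81 and 4.75 CPM in the term animals (log2 fold change -1.46, SE 0.34). CHAF1A, a chaperone that places histones on new DNA, was at 8.75 and 5.80 CPM at term compared with 16.3 and 18.1 CPM at 120 days (log2 fold change -1.24, SE 0.27). In all 3 genes both term animals were below both 120-day animals. TYMS, the enzyme that makes thymidylate for DNA, was at 19.4 and 17.02 CPM at 120 days against 8.65 and 9.26 CPM at term. MCM7, the most abundant member, differed least of these at 102 and 107 CPM in the 120-day animals and 87.5 and 80.00 CPM in the term animals (log2 fold change -0.32, SE 0.21). Together its members had 991 and 1006 CPM at 120 days, against 711 and 504 CPM at term, and term animal 2 was the lower animal. Its median was -1.58 without term animal 1 and -0.71 without term animal 2.

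Genes of mitosis and cytokinesis followed the same direction. Of 44 tested, 43 were lower and 1 higher, with a median of -0.88, and 40 were lower without overlap, against 27.0% of all genes. A total of 19 met the weaker rule, all lower, against 1.98% of all genes. The median was -1.47 without term animal 1. The list names 3 genes that the study also lists for this step, so it is not independent of these samples. KIF4A, a kinesin that condenses chromosomes and builds the spindle midzone, was at 1.97 and 2.74 CPM at term compared with 12.1 and 9.61 CPM at 120 days (log2 fold change -2.22, SE 0.33, adjusted p 0.205, edgeR). NEK2, a centrosome kinase, was at 12.7 and 9.19 CPM at 120 days against 3.10 and 1.37 CPM at term (log2 fold change -2.25, SE 0.41). TROAP, a spindle-associated protein, was at 8.08 and 7.78 CPM in the 120-day animals and 2.001 and 1.37 CPM in the term animals (log2 fold change -2.22, SE 0.38). AURKB, the kinase that corrects chromosome attachment, was at 3.36 and 4.59 CPM at term compared with 11.8 and 12.4 CPM at 120 days (log2 fold change -1.62, SE 0.30). In each of them the highest term value lay well under the lowest value at 120 days. MKI67, the usual marker of cycling cells, was at 25.3 and 14.5 CPM at 120 days against 5.97 and 0.563 CPM at term (log2 fold change -2.54, SE 0.76), and term animal 2 was far below animal 1. At the earlier ages KIF4A had 10.9 to 17.3 CPM over the 6 libraries of 65 to 100 days.

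Among genes that mend DNA crosslinks and breaks, FANCD2 had the smallest p of all genes tested. It encodes the protein whose ubiquitination marks crosslinked DNA for repair in the Fanconi anaemia pathway, and it lies on chromosome 19 from 16672218 to 16721852. Its values were 12.6 and 11.8 CPM in the 120-day animals and 2.39 and 2.50 CPM in the term animals. The animals of each age were nearly equal and the ages were far apart (log2 fold change -2.32, SE 0.28, adjusted p 0.189, edgeR). At 65 days both fetuses had more, 22.4 and 22.2 CPM. BRCA1, which directs repair by homologous recombination, was at 3.87 and 1.69 CPM at term compared with 8.01 and 6.18 CPM at 120 days (log2 fold change -1.32, SE 0.41), and RAD54L, a motor of strand exchange, at 11.8 and 14.9 CPM at 120 days against 5.97 and 7.73 CPM at term (log2 fold change -0.97, SE 0.27). Over the list, 21 of 27 genes were lower and 6 higher, with a median of -0.62, and the weaker rule held for 3, all lower, against 1.98% of all genes. That median was -1.36 without term animal 1 and -0.54 without term animal 2.

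**Figure D3:**
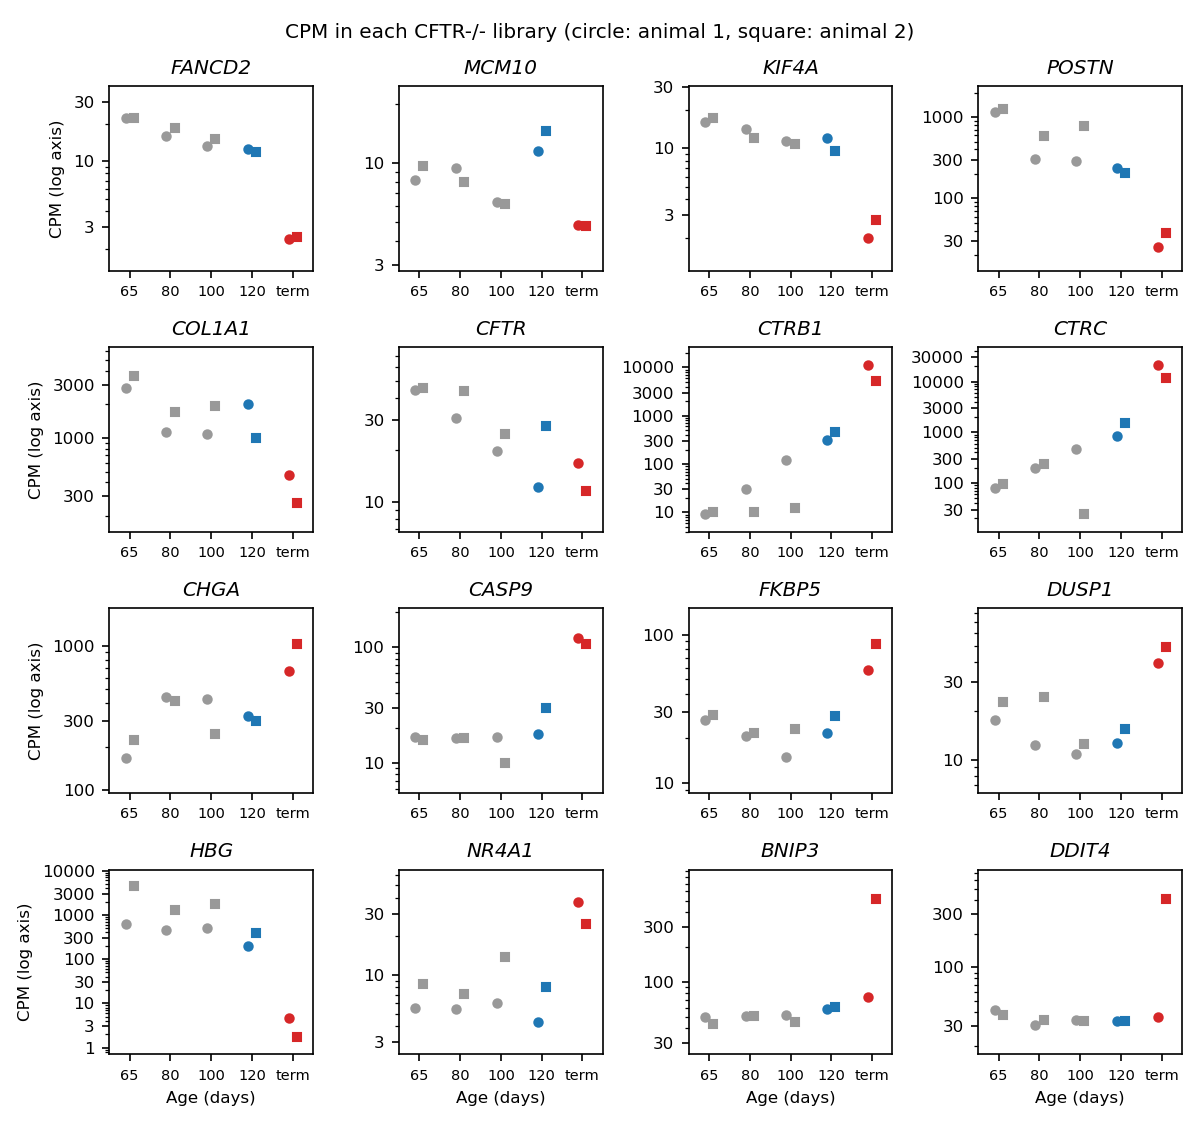
CPM (log axis) of 16 genes in each of the 10 CFTR-/- libraries by age in days, with circles for animal 1, squares for animal 2, blue for 120 days and red for term. FANCD2, KIF4A, POSTN and HBG are lowest in both term animals, CTRB1, CTRC, CASP9 and FKBP5 are highest in both, and BNIP3 and DDIT4 are high only in term animal 2.

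Genes of the stromal matrix were also lower. Of 45 tested, 40 were lower and 5 higher, with a median of -0.81, and the weaker rule held for 6, all lower, against 1.98% of all genes in that direction. Without 100-day animal 2 it held for 11, against 3.19% of all genes, and 3 of the 12 genes lower at an adjusted p (edgeR) of 0.05 in that fit were in this list. The study names many members of this list for its bulk or single-cell data, among them COL1A1, COL3A1, DCN, SPARC, POSTN and VCAN, so the list is not independent of it. POSTN, a matricellular protein of growing and fibrotic connective tissue, was at 237 and 204 CPM in the 120-day animals and 25.3 and 37.3 CPM in the term animals (log2 fold change -2.82, SE 0.51, adjusted p 0.261, edgeR). COL1A1, the main chain of fibrillar collagen, was at 470.1 and 264 CPM at term compared with 2019.7 and 1008 CPM at 120 days (log2 fold change -2.05, SE 0.51). VCAN, the large proteoglycan of loose embryonic matrix, was at 22.9 and 14.6 CPM at 120 days against 4.29 and 4.10 CPM at term (log2 fold change -2.16, SE 0.57). The groups were apart in all 3. FBN3, a fibrillin of fetal microfibrils, was at 4.65 and 8.75 CPM in the 120-day animals and 1.26 and 1.13 CPM in the term animals (log2 fold change -2.47, SE 0.35). COL3A1, the most abundant member, was at 972 and 960.5 CPM at term compared with 3475 and 2491 CPM at 120 days (log2 fold change -1.63, SE 0.56). It did not meet the weaker rule although its groups did not overlap. DCN, a collagen-binding proteoglycan, was at 427 and 325 CPM at 120 days against 184 and 369.5 CPM at term, with term animal 2 inside the range of 120 days, and SPARC, a matrix-binding glycoprotein, was at 1169 and 943 CPM in the 120-day animals and 544 and 582 CPM in the term animals. ELN, which encodes elastin, stood on the other side at 115 and 289 CPM at term compared with 94.8 and 76.4 CPM at 120 days. Summed matrix CPM were 11773 and 8148 in the fetuses against 4025 and 4487 at term. The median of the list was -0.38 to -1.05 when 1 of the 4 libraries was left out.

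Markers of contractile stellate and smooth muscle cells did not share one direction, with 8 higher and 9 lower of 17 and a median of -0.19. None met the weaker rule, and the adjusted p (edgeR) was at least 0.402 for each. Without 100-day animal 2 the rule held for 1 higher and 1 lower gene of 17, against 1.31% and 3.19% of all genes, with a smallest adjusted p (edgeR) of 0.183. The median of the list ran from -0.40 to 0.44 when 1 of the 4 libraries was left out. ACTA2, smooth muscle actin and the marker of activated stellate cells, was at 36.7 and 34.1 CPM at 120 days against 37.3 and 99.8 CPM at term (log2 fold change 0.95, SE 0.73). Term animal 1 was at the level of the fetuses and animal 2 above it. EDNRA, an endothelin receptor of such cells, was at 5.62 and 5.84 CPM in the 120-day animals and 1.03 and 2.33 CPM in the term animals. Schwann and glial markers had 9 higher and 7 lower of 16 (median 0.24, and 0.030 to 0.41 when 1 library was left out), and 0 met the weaker rule. Without 100-day animal 2 it held for 1 lower gene of 16, against 3.19% of all genes.

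Stress and signalling genes were higher in part. Of 22 immediate early genes, which respond to stimuli within minutes, 19 were higher and 3 lower, with a median of 0.75, and the weaker rule held for 5, all higher, against 0.624% of all genes. NR4A1, an orphan nuclear receptor, was at 37.4 and 25.1 CPM at term compared with 4.30 and 8.12 CPM at 120 days (log2 fold change 2.33, SE 0.50, adjusted p 0.286, edgeR). DUSP1, a phosphatase that switches off MAP kinases, was at 12.7 and 15.6 CPM at 120 days against 39.3 and 49.5 CPM at term (log2 fold change 1.65, SE 0.34). Both genes were higher in both term animals. JUN, a subunit of AP-1, was at 19.5 and 41.5 CPM in the 120-day animals and 57.8 and 179 CPM in the term animals. IER3, a survival factor, was at 14.7 and 80.1 CPM at term compared with 7.51 and 5.03 CPM at 120 days, and BTG2, an antiproliferative gene, at 36.1 and 34.6 CPM at 120 days against 58.4 and 158 CPM at term. In all 3 genes animal 2 was the higher at term. The best known member of the class, FOS, was at 2.53 and 8.38 CPM in the 120-day animals and 33.2 and 9.82 CPM in the term animals, and EGR1 at 4.55 and 0.966 CPM at term compared with 2.83 and 1.45 CPM at 120 days with overlapping ages.

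Glucocorticoid-responsive genes were higher in 14 of 19 and lower in 5, with a median of 0.71 (0.45 without term animal 1). The weaker rule held for FKBP5 and for DUSP1, which is also an immediate early gene, or 2 of 19 against 0.624% of all genes in the higher direction. FKBP5, a cochaperone of the glucocorticoid receptor that the receptor itself induces, was at 21.7 and 28.3 CPM at 120 days against 57.7 and 86.04 CPM at term (log2 fold change 1.53, SE 0.29, adjusted p 0.286, edgeR). TSC22D3, or GILZ, an anti-inflammatory target of the same receptor, was at 45.3 and 54.3 CPM in the 120-day animals and 84.1 and 109 CPM in the term animals (log2 fold change 0.96, SE 0.31). The groups did not overlap in either gene. PDK4, which curbs glucose oxidation, was at 13.6 and 45.8 CPM at term compared with 10.7 and 9.75 CPM at 120 days, high only in animal 2.

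CASP9, the initiator caspase of mitochondrial apoptosis, had the smallest p among genes higher at term. It lies on chromosome 12 from 49990944 to 50029451 and was measured at 17.8 and 30.1 CPM at 120 days against 119.9 and 107 CPM at term. Both term animals were several fold above both fetuses (log2 fold change 2.25, SE 0.32, adjusted p 0.189, edgeR). At 65 to 100 days its values were 10.02 to 16.7 CPM over 6 libraries. CASP9 was higher at term in WT too, at 17.3 and 12.8 CPM at 120 days against 319 and 84.5 CPM at term. The change in CFTR-/- minus that in WT was -1.49 in log2 (SE 0.62). The other genes of the apoptosis list showed no common direction. Of 27 tested, 15 were higher and 12 lower, with a median of 0.05 (-0.10 to 0.10 when 1 library was left out), and the weaker rule, met by 0.624% of all genes in the higher direction, held only for CASP9 and for BMF, a BH3-only protein that binds BCL2 (47.98 and 33.4 CPM in the 120-day animals and 69.7 and 80.00 CPM in the term animals). Without 100-day animal 2 it held for 2 of 27, both higher, against 1.31% of all genes, and 1 of them had an adjusted p (edgeR) of 0.032.

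Several hypoxia-responsive genes were high in term animal 2 alone. Of 27 tested, 19 were higher and 8 lower, with a median of 0.82, and the weaker rule held for 5 higher genes and 1 lower, where 0.624% and 1.98% of all genes met it in these directions. BNIP3, a mitophagy receptor, was at 74.7 and 512 CPM at term compared with 58.95 and 60.99 CPM at 120 days (log2 fold change 2.29, SE 0.66). DDIT4, an inhibitor of mTORC1 signalling, was at 33.2 and 33.6 CPM at 120 days against 35.9 and 412 CPM at term (log2 fold change 2.75, SE 0.81). EGLN3, an oxygen-sensing prolyl hydroxylase, was at 2.999 and 3.64 CPM in the 120-day animals and 10.6 and 77.8 CPM in the term animals (log2 fold change 3.73, SE 1.03). In BNIP3 and DDIT4 term animal 1 was close to the fetuses and term animal 2 many fold higher, and in EGLN3 animal 1 lay between. ANKRD37, a target of hypoxia-inducible factor, was at 6.13 and 58.03 CPM at term compared with 5.27 and 4.24 CPM at 120 days, again with animal 2 far above the rest. Without term animal 2 the median of the list was -0.14, and without term animal 1 it was 1.42. MXI1, a MAX partner, was higher in both term animals (16.3 and 16.3 CPM at 120 days against 28.95 and 46.8 CPM at term), and HMOX1, heme oxygenase, was lower in both (18.5 and 12.3 CPM in the 120-day animals and 5.16 and 2.98 CPM in the term animals, log2 fold change -1.90, SE 0.49). Term animal 2 is also the shallowest library, and whether depth has a part in the pattern was not tested.

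The unfolded protein response did not differ in one direction. Of 30 genes, 17 were higher and 13 lower, with a median of 0.06 that ran from -0.38 to 0.29 when 1 library was left out. Only SIL1, a nucleotide exchange factor for HSPA5, met the weaker rule, 1 of 30 against 0.624% of all genes higher (123 and 139.9 CPM at term compared with 65.02 and 80.5 CPM at 120 days, log2 fold change 0.86, SE 0.25). Without 100-day animal 2 the rule held for 2 of 30, both higher, against 1.31% of all genes, and 1 of them had an adjusted p (edgeR) of 0.048. HSPA5, the chief chaperone of the endoplasmic reticulum, was at 1236 and 2847 CPM at 120 days against 1948 and 979.9 CPM at term (log2 fold change -0.48, SE 0.51). HERPUD1, which helps to clear misfolded proteins, was at 163 and 494 CPM in the 120-day animals and 480.0 and 130.4 CPM in the term animals (log2 fold change -0.11, SE 0.67). In both genes the 2 animals of an age differed more than the ages. ATF6, a sensor of unfolded protein, was at 49.6 and 49.02 CPM at term compared with 50.9 and 43.3 CPM at 120 days, and DNAJC3, a cochaperone, at 189 and 223 CPM at 120 days against 282 and 148 CPM at term. CREB3L3, a transcription factor of the same membrane, was at 11.96 and 9.69 CPM in the 120-day animals and 40.1 and 63.99 CPM in the term animals and was the highest of the list by fold change (2.26, SE 0.77). Amino acid and serine synthesis genes had 13 higher and 9 lower of 22, with 0 by the weaker rule and a median of 0.02, which was -0.61 without term animal 1 and 0.41 without term animal 2. Their summed CPM was nonetheless higher in both term animals, at 1980 and 2721 at 120 days against 5053 and 6698.5 at term. The most abundant member, NUPR1, was at 938 and 1492 CPM at 120 days against 3595 and 5842 CPM at term. PSAT1, a transaminase of serine synthesis, was at 71.8 and 26.96 CPM at term compared with 24.9 and 39.9 CPM at 120 days (log2 fold change 0.61, SE 0.52).

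Cytosolic heat shock genes were lower in 12 and higher in 7 of 19 (median -0.64). Without 120-day animal 2 the median was 0.016, and it ran down to -1.09 without 120-day animal 1. HSPA8, the constitutive Hsp70 chaperone, was at 325 and 478 CPM at 120 days against 229 and 106 CPM at term (log2 fold change -1.26, SE 0.38), while HSPA6, a strictly inducible Hsp70, was at 2.69 and 12.6 CPM in the 120-day animals and 27.5 and 34.05 CPM in the term animals (log2 fold change 2.01, SE 0.60). These were the 2 members that met the weaker rule, in opposite directions, against 0.624% of all genes higher and 1.98% lower. HSPA1A, the most abundant member, overlapped between the ages (1012 and 1299 CPM at term compared with 393 and 1231 CPM at 120 days).

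Endocrine genes were mostly lower by small amounts. Of 31 tested, 8 were higher and 23 lower, with a median of -0.34 (-0.45 to -0.20 when 1 library was left out), and the weaker rule held for 1 in each direction, where 0.624% of all genes met it in the higher and 1.98% in the lower. CHGA, a protein of hormone granules, was at 326 and 302 CPM at 120 days against 666 and 1032 CPM at term (log2 fold change 1.44, SE 0.36, adjusted p 0.299, edgeR). It was higher in both term animals. NEUROG3, the factor that commits progenitors to the endocrine fate, was at 0.867 and 1.07 CPM at 120 days and had 0 counts in both term libraries, which makes it at least 5.72-fold lower against 3 counts per library. GCG, glucagon, was at 2232 and 3289 CPM in the 120-day animals and 2601 and 1323 CPM in the term animals, and SST, somatostatin, at 1559.6 and 1253 CPM at term compared with 1107 and 1869.6 CPM at 120 days, and both overlapped between the ages. ISL1, a transcription factor of islet cells, was at 22.7 and 27.7 CPM at 120 days against 16.4 and 2.41 CPM at term, lowest in term animal 2, and SCGN, a calcium sensor of these cells, at 149 and 187 CPM in the 120-day animals and 169.5 and 202 CPM in the term animals.

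Duct markers had 14 higher and 13 lower of 27, with a median of 0.02 (-0.13 to 0.23 when 1 library was left out). KRT19, the keratin of duct epithelium, was at 57.3 and 106 CPM at term compared with 56.4 and 115 CPM at 120 days, and SOX9, the factor of duct and progenitor cells, at 68.5 and 94.5 CPM at 120 days against 40.5 and 77.3 CPM at term. Neither separated the ages. MUC6, a gel-forming mucin, was at 1.14 and 0.475 CPM at 120 days and at 0 in both term libraries, at least 4.79-fold lower against 3 counts per library, and it was the only member that met the weaker rule, 1 of 27 against 1.98% of all genes lower. MUC1, another mucin, was at 106 and 105 CPM at 120 days against 274 and 245 CPM at term (log2 fold change 1.30, SE 0.73). TFF2, the most abundant duct marker, was at 1262 and 1352 CPM in the 120-day animals and 3780 and 2060 CPM in the term animals. In both genes each term value lay above both values of 120 days. Added together, duct markers came to 3152.5 and 3950 CPM at 120 days, and to 6110 and 4720.5 CPM at term. Groups did not overlap for 6 higher and 5 lower members. ELF5, an epithelial transcription factor, was at 11.7 and 16.2 CPM in the 120-day animals and 5.97 and 8.77 CPM in the term animals, lower in both term animals (log2 fold change -0.92, SE 0.57). The acinar genes named above, GCG, SST and KRT19 were counted in all 4 libraries, as the tissue label requires.

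The globin genes HBG and HBA1 were lower at term by the weaker rule, while red cell genes as a list were lower in 14 and higher in 5 of 19. HBG, a fetal globin, was at 4.78 and 1.69 CPM at term compared with 199 and 381 CPM at 120 days (log2 fold change -6.45, SE 1.18, adjusted p 0.261, edgeR). HBA1, an alpha globin, was at 190.2 and 333 CPM at 120 days against 10.8 and 15.3 CPM at term (log2 fold change -4.33, SE 0.98), and HBB, a beta globin, at 59.1 and 92.3 CPM in the 120-day animals and 26.3 and 38.5 CPM in the term animals (log2 fold change -1.22, SE 0.75). The groups did not overlap in HBB, but it did not meet the weaker rule. Globin genes are near-identical copies, so the division of reads among them is uncertain. The summed CPM of the erythroid list was 521 and 890.0 at 120 days against 112 and 171 at term, and the weaker rule held for 3 members, HBG, HBA1 and ALAS2, all lower (1.98% of all genes). Over the 8 members counted in all 4 libraries the median was -0.065. At 0 in both term libraries were 8 of the 19, and the median was -4.26 as fitted and 0.00 with these genes at their bound or at 0 where no fold can be given. As fitted it ran from -4.58 to -1.51 when 1 of the 4 libraries was left out. How much blood each piece of tissue held was not tested.

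Immune markers were sparse at both ages. Lymphoid genes summed to 27.8 and 25.6 CPM at 120 days against 24.7 and 47.3 CPM at term, and myeloid genes to 120.1 and 124 CPM at 120 days against 73.6 and 98.8 CPM at term. C1QC, a complement subunit made by macrophages, was at 2.19 and 2.74 CPM at term compared with 14.8 and 14.8 CPM at 120 days (log2 fold change -2.60, SE 0.90). SIGLEC14, a lectin of myeloid cells, was at 0.711 and 0.456 CPM at 120 days and at 0 at term, at least 3.45-fold lower, and it was the 1 myeloid gene of 24 that met the weaker rule, against 1.98% of all genes lower. Endothelial genes had 13 higher and 7 lower of 20 (median 0.13, and -0.19 to 0.32 when 1 library was left out), of which only APOLD1, an early response gene of endothelium, met the rule (0.624% of all genes higher) at 1.61 and 3.39 CPM at 120 days against 10.5 and 31.6 CPM at term (log2 fold change 3.07, SE 0.63). Interferon-responsive genes had 10 higher and 12 lower of 22 (median -0.14, and -0.31 to 0.0097 when 1 library was left out), complement and acute phase genes 6 and 10 of 16 (median -0.46, but -1.05 without term animal 2 and -0.14 without term animal 1), and 0 genes of either list met the rule.

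Markers of other organs were examined for tissue carried along. Hepatocyte genes were higher in 13 and lower in 5 of 18 (median 0.58, but 0.026 without term animal 1 and 0.89 without term animal 2), and their summed CPM was 2616 and 3086 at 120 days against 11834 and 8319 at term. The list includes TTR, which is also in the endocrine list and which the study reports as a marker of its endocrine cells. The sum is therefore not a measure of liver tissue alone. SERPINA1, the protease inhibitor alpha-1-antitrypsin, which acinar cells can also make, was at 147 and 74.5 CPM in the 120-day animals and 2649.7 and 3035 CPM in the term animals and was the most abundant member by the sum of the 4 libraries. ALB, albumin, was at 3147 and 1430.2 CPM at term compared with 194 and 241 CPM at 120 days, and FGA, a fibrinogen chain, at 0.104 and 0.119 CPM at 120 days against 0.839 and 1.13 CPM at term. Both were higher in both term animals, and 0 of the list met the weaker rule. Enterocyte genes summed to 109 and 115 CPM at 120 days against 99.1 and 89.99 CPM at term, with 1 higher and 7 lower of 11 and 5 at 0 in both term libraries. Adipocyte genes summed to 85.2 and 66.2 CPM at 120 days against 77.4 and 54.1 CPM at term, with 6 higher and 7 lower of 16.

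Of the remaining genes with the smallest p in the higher direction, SNTG1, a syntrophin, was at 0.936 and 0.733 CPM in the 120-day animals and 17.2 and 33.97 CPM in the term animals (log2 fold change 4.93, SE 0.92). ITPKA, a kinase of inositol trisphosphate, was at 65.1 and 61.6 CPM at term compared with 19.03 and 20.4 CPM at 120 days (log2 fold change 1.68, SE 0.30), and MCEE, an enzyme of propionate breakdown, at 15.8 and 14.97 CPM at 120 days against 35.5 and 41.6 CPM at term (log2 fold change 1.32, SE 0.25). Both animals were close to each other at each age in ITPKA and MCEE. MCOLN2, a lysosomal cation channel, was at 10.6 and 9.01 CPM in the 120-day animals and 32.98 and 36.2 CPM in the term animals and the unnamed open reading frame C6H4orf32 at 43.99 and 70.2 CPM at term compared with 16.5 and 15.5 CPM at 120 days (log2 fold change 1.83, SE 0.29). In the lower direction 6 of the 10 genes with the smallest p (among those without overlap and with at least 1 CPM at 120 days) had 0 counts in both term libraries and between 1.11 and 3.82 CPM at 120 days. CRABP2, which carries retinoic acid to its receptors, was at 2.13 and 2.91 CPM at 120 days and is at least 14.9-fold lower at term against 3 counts per library. NEFL, the light neurofilament, was at 2.55 and 1.47 CPM and is at least 11.9-fold lower, and HCRTR1, an orexin receptor, at 1.94 and 1.17 CPM and at least 9.19-fold lower. These bounds cover counting error only, and the term libraries had more genes at 0 at such levels, as given above.

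Ribosomal protein genes were higher in all 56 tested, by a median of 0.49, but 0 met the weaker rule and 17 were higher without overlap, against 16.5% of all genes. RPLP1, the most abundant, was at 5454 and 7964 CPM at 120 days against 10124 and 13425 CPM at term (log2 fold change 0.81, SE 0.53). The median was 0.11 without term animal 2 and 0.73 without term animal 1. Mitochondrial respiratory chain genes had 17 higher and 3 lower of 20 (median 0.15, and -0.0014 to 0.32 when 1 library was left out). NDUFS1, the largest subunit of complex I, was the 1 member to meet the rule, 1 of 20 against 1.98% of all genes lower. It was at 31.8 and 41.3 CPM in the 120-day animals and 21.04 and 16.7 CPM in the term animals (log2 fold change -0.95, SE 0.23).

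The same step was compared between genotypes by a test of the difference itself, the change in CFTR-/- minus the change in WT, over all 20 libraries. It called 0 of 19522 genes (0.0%) with edgeR's quasi-likelihood test, 3415 had an unadjusted p under 0.05, and the likelihood ratio test called 93. The weaker rule held for 1079 genes (5.53%), and in the simulation of this test it took in 175 unchanged genes. Of the WT libraries, 120-day animal 2 stood apart, with summed erythroid CPM of 8657 against 923 in animal 1, lymphoid CPM of 438 against 20.9 and stellate and smooth muscle CPM of 1372 against 309.8, and it enters every value that follows. The smallest adjusted p was 0.047, shared by 7 genes. EXTL3, a glycosyltransferase of heparan sulfate, was at 23.3 and 14.3 CPM in WT fetuses and 95.1 and 61.7 CPM in WT lambs at term, against 19.2 and 18.1 CPM in CFTR-/- fetuses and 13.4 and 10.5 CPM in CFTR-/- animals at term (difference of log2 fold changes -2.70, SE 0.39). ARL1, a small GTPase of the Golgi, was at 11.1 and 7.99 CPM in WT fetuses and 37.7 and 45.1 CPM in WT lambs at term, against 11.9 and 15.2 CPM in CFTR-/- fetuses and 9.65 and 9.18 CPM in CFTR-/- animals at term (difference -2.64, SE 0.41). Both were higher at term in WT and lower in CFTR-/-. The reverse held for the open reading frame C25H10orf10, at 26.3 and 43.4 CPM in WT fetuses and 3.78 and 4.87 CPM in WT lambs at term, against 21.4 and 26.1 CPM in CFTR-/- fetuses and 50.8 and 581 CPM in CFTR-/- animals at term, and for the unnamed locus LOC105605070.

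Lists differed in their medians between the genotypes. Unfolded protein response genes had a median of 0.06 in CFTR-/- and 1.6 in WT, where 29 of 30 were higher, and the median of the per-gene differences was -1.59 (-1.98 to -1.30 when 1 of the 8 libraries was left out), against -0.14 over all genes. The weaker rule for the difference held for 12 of the 30 genes, all with the smaller or negative change in CFTR-/-, against 5.53% of all genes in both directions. HSPA5 was at 817 and 697 CPM in WT at 120 days and 2609 and 8873 CPM in WT at term (difference -3.40, SE 0.78, edgeR adjusted p 0.110). The WT values did not overlap between ages, whereas those of CFTR-/- did. HERPUD1 was at 141 and 117 CPM in WT fetuses and 888 and 1324 CPM in WT lambs at term (difference -3.21, SE 0.82). Amino acid and serine synthesis genes had a WT median of 1.59 and a median difference of -1.74 (-2.31 to -1.11 when 1 of the 8 libraries was left out). Their summed CPM was higher at term in both genotypes. In WT it was 1541 and 1804 at 120 days against 3040 and 5409 at term. PSAT1 was at 20.6 and 15.4 CPM in WT fetuses and 266 and 319 CPM in WT lambs at term (difference -3.41, SE 0.64, edgeR adjusted p 0.092). Its CFTR-/- values at term lay below both WT values of that age.

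DNA replication genes had a median above 0 in WT, at 0.39 with 26 of 38 higher, and the median difference was -1.40 (-2.18 to -1.10 when 1 library was left out). Their summed CPM in WT overlapped between the ages, at 1069 and 1039 at 120 days against 1012 and 1524 at term. In that sum only WT term animal 2 was above the WT fetuses. The weaker rule for the difference held for 12 of 38, all lower in CFTR-/-, against 5.53% of all genes in both directions. MCM10 was at 14.1 and 8.68 CPM in WT at 120 days and 17.9 and 28.3 CPM in WT at term (difference -2.48, SE 0.45, edgeR adjusted p 0.089), and FANCD2 at 14.3 and 11.8 CPM in WT fetuses and 12.9 and 7.25 CPM in WT lambs at term (difference -1.95, SE 0.40, edgeR adjusted p 0.098). In both genes the CFTR-/- values at term were the lowest of the 8. Acinar genes were higher in both genotypes, with a WT median of 1.88 and a median difference of -0.59 that changed sign when 1 library was left out (-1.20 to 0.52). REG1A was at 94.8 and 54.3 CPM in WT at 120 days and 99046 and 2851 CPM in WT at term, so that its level at 120 days was lower in WT than in CFTR-/-. Matrix genes had a WT median of -1.58 and stellate and smooth muscle genes of -2.03. ACTA2 was at 23.2 and 182 CPM in WT at 120 days and 24.7 and 9.02 CPM in WT at term, and 120-day animal 2 alone was high. Ribosomal protein genes were lower in all 56 in WT (median -0.86), where their summed CPM was 79421 and 154500.0 at 120 days, and the median difference was 1.35, or 0.66 without WT 120-day animal 2. Without WT 120-day animal 2 the median differences were -1.71 for the unfolded protein response, -1.79 for amino acid and serine synthesis, -1.29 for DNA replication, 0.18 for the matrix against 0.69 with it, and 0.35 for stellate and smooth muscle genes against 1.61 with it.

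**Figure D4:**
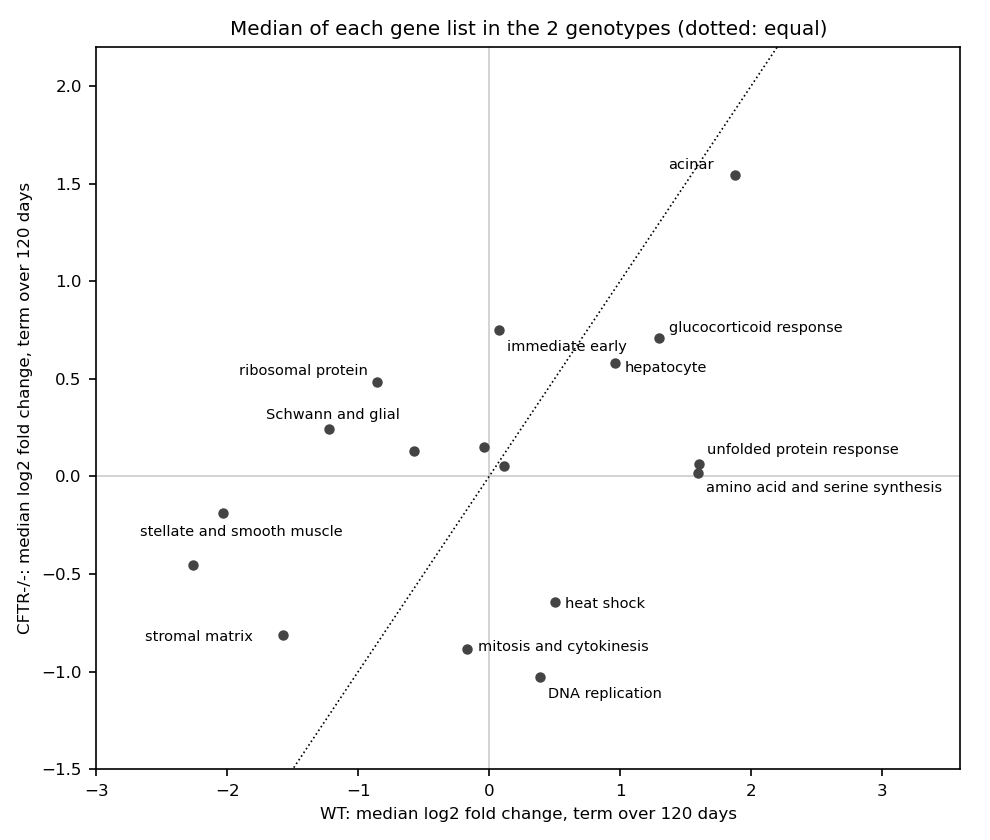
Median log2 fold change of term over 120 days in CFTR-/- (y axis) against WT (x axis), with 1 point for each list in which no tested member had 0 counts in both CFTR-/- term libraries, and a dotted line where the genotypes are equal. Unfolded protein response and amino acid genes lie near 0 in CFTR-/- and well above 0 in WT, and DNA replication genes at -1.03 in CFTR-/- and 0.39 in WT.

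**Figure D5:**
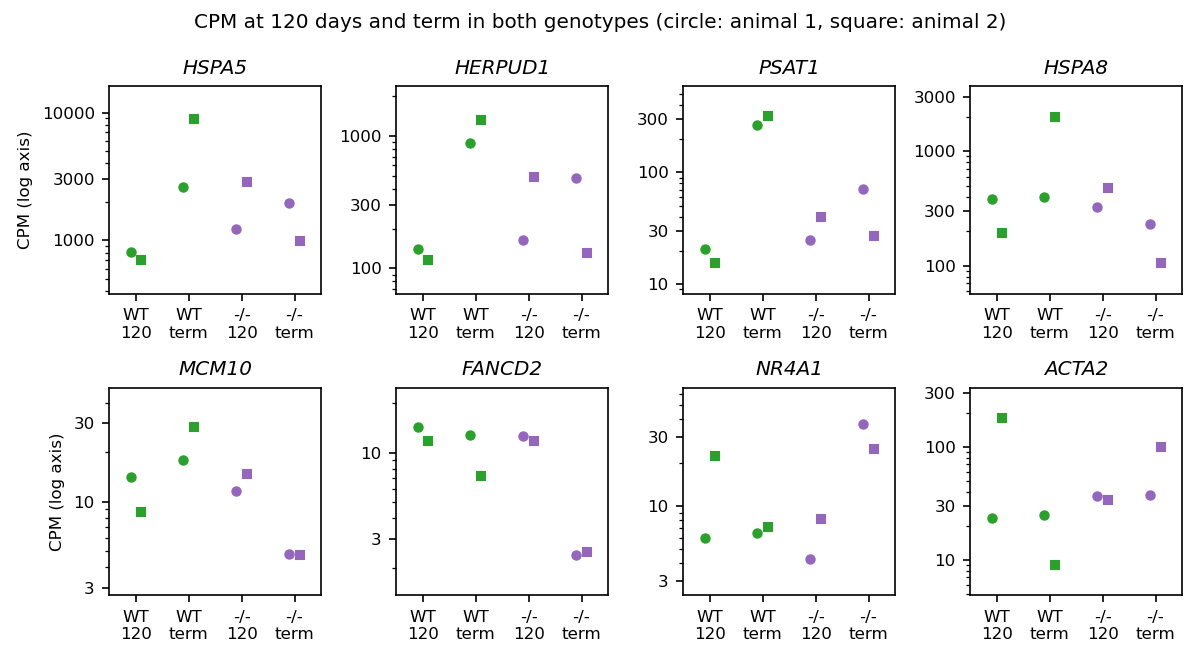
CPM (log axis) of 8 genes at 120 days and term, in green for WT and purple for CFTR-/-, with circles for animal 1 and squares for animal 2. HSPA5, HERPUD1 and PSAT1 are higher in both WT term animals than in both WT fetuses, and FANCD2 and MCM10 are lowest in the 2 CFTR-/- term animals.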

How the data were processed

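Bulk RNA-seq of sheep pancreas was analysed, with 2 animals per genotype and age. The authors deposited raw read counts per gene from oligo-dT directional libraries of TRIzol-extracted total RNA, and the submitters' processing notes name STAR and featureCounts 1.6.3. The files carry Oar_v4.0 coordinates, and the strand setting of the counting is not given in the sources used here. Totals were 23171353 to 64947692 counts over the 20 libraries. P-values measure only the spread between these animals.

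Counts were scaled by TMM, genes were kept by filterByExpr (minimum count 10, minimum total 15), and the 10 CFTR-/- libraries were fitted together in edgeR 4.0.16 (R 4.3.3) by the quasi-likelihood test, in which libraries of other ages enter the filter, the scaling and the spread but not the contrast. The difference between genotypes used all 20 libraries. DESeq2 1.42.0, the likelihood ratio test, glmTreat, other scalings and filters, the replicate block, the length trend and each library left out were alternatives. Those restricted to genes counted in all 4 libraries, and the recentred length trend, were chosen after seeing the data. Fold bounds for genes at 0 use 3 counts per library and cover counting error only. The fit was tested on simulated counts, where the genotype difference recovered 13.5% of changed genes and called 0 unchanged ones. The weaker rule took in 146 unchanged genes for term against 120 days and 175 for the genotype difference.

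The comparison, gene lists and limits were chosen with earlier results of these data known, including the paper's own table of this comparison with its p-values, from which some list members come. The genes named were taken from those that the study names and those among the 10 with the smallest p per direction without overlap, the 4 with the smallest p per list, the 5 for the genotype difference or the 10 most abundant. Outside this rule ALB, ANKRD37, C1QB, EGR1, ELN, FOS, GCG, HSPA1A, JUN, MCM7, MKI67, PNLIP, RBPJL, SFRP1, SOX9, SST and TFF2 were picked with their values already seen. Of 8432 locus identifiers 595 were given names, 501 from RefSeq and 94 from tables of the study. The authors' comparison tables hold fold changes and p-values, of which none was used as a result. No sequences were used here. Not every gene that the naming rule gives is described, and 1 result outside it is not reported here.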

Additional observations from a re-analysis of the deposited data

How the results depend on the processing

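Each alternative is set against the fit reported above. DESeq2 changes the scaling, dispersion and test together, recentring adds to the removal of the length trend, and a fit on fewer libraries also changes which genes are tested. The term against 120 days step called 0 genes under each, except DESeq2's Wald test (139), the likelihood ratio test (92) and the fits without 1 library, which ranged from 0 to 1 (the 1 without term animal 1). Genes at an unadjusted p of 0.01 with the fold limit numbered 488, and 957 with DESeq2, 979 with the likelihood ratio test, 298 with glmTreat against a fold change of 1.5, 58 at a p of 0.001, 878 without 100-day animal 2, 786 with the gene length trend removed and 184 to 1288 without 1 of the 4 libraries. With only the 4 libraries 56.0% of 382 genes were higher. The difference between genotypes called 0 genes, 93 with the likelihood ratio test, 7 at an adjusted p of 0.05, 1079 at an unadjusted p of 0.01 and 0 to 134 without 1 library (134 without CFTR-/- term animal 1, 9 without WT term animal 1 and 6 without WT 120-day animal 1). The cause was not tested. Replicate numbers were not taken as pairs in the main fit. Deviations of same-numbered animals correlated over 0.1 in 5 of 10 pairs of groups (-0.17 to 0.36), and at 0.13 for term and 120 days. With the replicate block 449 genes met the weaker rule and 0 were called for either comparison.

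Of 107 genes examined under 17 alternatives, 90 never changed sign. With the length trend removed, log2 fold changes turned to 0.032 for DCN, 0.079 for FGFR2, 0.19 for HERPUD1, 0.35 for KRT19, 0.10 for MCM7, 0.35 for RBPJL, 0.074 for SOX9 and 0.15 for SST, and after recentring none of these turned. With the replicate block the value was -0.022 for DNAJC3. Leaving out 1 of the 4 libraries gave -0.051 to 0.19 for ATF6, -0.95 to 0.23 for CFTR, -0.48 to 0.43 for DNAJC3, -1.15 to 1.07 for EGR1, -1.35 to 0.89 for HERPUD1, -0.087 to 1.55 for HSPA1A, -1.08 to 0.24 for HSPA5, -0.61 to 0.53 for KRT19, -0.23 to 0.28 for PDGFC, -0.28 to 1.12 for PSAT1, -0.39 to 0.12 for RBPJL, -0.012 to 0.31 for SCGN and -0.41 to 0.34 for SST, so that each of these ranges spans 0. The median of all genes was -0.26 without term animal 1. Of 31 lists, medians changed sign in 8 without 120-day animal 1, 6 without term animal 2, 3 without term animal 1 1 without 120-day animal 2, 6 with the length trend removed, 3 with the replicate block, 1 with only the 4 libraries and 0 with other scaling factors.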

Other observations

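Genes of fetal growth were mostly lower at term. Of 22 tested, 5 were higher and 17 lower, with a median log2 fold change of -0.55 (-0.43 with genes at 0 in both term libraries at their bound, and -0.85 to -0.15 as fitted when 1 of the 4 libraries was left out), and the weaker rule (unadjusted p up to 0.01, log2 fold change of 0.58 or more in size) held for CRABP2 and for MDK, 2 of 22 against 1.98% of all genes in the lower direction. MDK, a heparin-binding growth factor of the embryo, was at 21.8 and 24.9 CPM at term compared with 64.7 and 98.1 CPM at 120 days (log2 fold change -1.80, SE 0.47). PTN, its close relative, was at 224 and 325 CPM at 120 days against 101 and 174 CPM at term (log2 fold change -0.99, SE 0.50). Both genes were lower in both term animals. PDGFC, a growth factor for mesenchymal cells, was at 9.92 and 11.7 CPM in the 120-day animals and 9.39 and 13.2 CPM in the term animals, and FGFR2, a receptor for fibroblast growth factors, at 16.6 and 15.4 CPM at term compared with 17.9 and 23.9 CPM at 120 days. C3H2orf40, an open reading frame, was at 32.8 and 28.1 CPM at 120 days against 17.4 and 18.6 CPM at term (log2 fold change -0.76, SE 0.45).

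Ephrin signalling genes, which guide cell sorting and axons, were lower in 17 and higher in 2 of 19 (median -0.73, but -1.33 without term animal 1), and the weaker rule held for 3, all lower, against 1.98% of all genes. EPHB2, a receptor of this family, was at 10.1 and 3.17 CPM in the 120-day animals and 0.484 and 1.13 CPM in the term animals (log2 fold change -3.12, SE 0.69), and EPHA3, another receptor, at 1.87 and 3.94 CPM at term compared with 12.7 and 7.03 CPM at 120 days (log2 fold change -1.80, SE 0.56). Genes of the WNT and TGF-beta family were lower in 27 and higher in 10 of 37 (median -0.60, and -0.52 with genes at 0 at their bound, but -1.20 as fitted without term animal 2), and the rule held for 4, all lower, against 1.98% of all genes. SFRP2, a secreted WNT antagonist, was at 3.36 and 1.56 CPM at 120 days against 0.387 and 0 CPM at term, FZD1, a WNT receptor, at 9.83 and 7.39 CPM in the 120-day animals and 3.81 and 2.66 CPM in the term animals, and DACT3, a WNT inhibitor, at 0.0323 and 0.161 CPM at term compared with 3.57 and 5.82 CPM at 120 days. In all 3 genes the term values lay below those of 120 days. Neuronal genes were lower in 13 and higher in 1 of 14 (median -1.10, and -0.76 with 4 genes at 0 at their bound), and 3 met the rule, all lower, against 1.98% of all genes. GAP43, a growth cone protein that did not meet the rule, was at 12.7 and 13.9 CPM at 120 days against 6.91 and 7.16 CPM at term (log2 fold change -0.92, SE 0.29).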
